A study of Caenorhabditis elegans with 4 samples.

Results

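The C-type lectin genes of C. elegans, named clec and a number, were examined in mRNA-seq data from dissected gonads. Members were all genes of the deposited tables whose symbol is clec followed by a number and nothing else, which gave 255 of 20389 genes. C-type lectins carry a domain that in many proteins of the family binds carbohydrates at a calcium ion. The family is greatly expanded in the nematode, and many of its genes are transcribed in the intestine, where some are induced when the animal meets a pathogen. The gene clec-85 is known as a target of the PMK-1 p38 MAP kinase pathway, which controls immune genes in the intestine.

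The experiment compared gonads of met-2(n4256);him-8(tm611) hermaphrodites with gonads of him-8(tm611) hermaphrodites, with 2 libraries per genotype. The him-8 mutation, present in both genotypes, disturbs pairing and synapsis of the X chromosomes, and MET-2 is a methyltransferase for histone H3 lysine 9. Each preparation held 400 gonad arms of adults roughly 1 day past the last larval stage, cut at the spermatheca, and 1.2 micrograms of total RNA. The met-2 animals were recent homozygous progeny of a balanced strain. Separate sets of gonads were dissected for the replicates. The met-2;him-8 libraries are called M1 and M2 and the him-8 libraries H1 and H2, by replicate number. A fold change is the level in met-2;him-8 divided by that in him-8, and a level is given as CPM (reads scaled to a common library size, after TMM normalization) within a gene or as RPKM (reads per kilobase of exon, scaled to library size) between genes.

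Library totals ranged from 14255714 to 49848077 counted reads, and M1 and H2 were the shallower library of each genotype. The mutated gene met-2 was at 25.8 CPM in M1, 52.8 CPM in M2, 127 CPM in H1 and 212 CPM in H2, so no library went against its genotype. The germ line list (10 of 10 genes detected) and the oocyte list (5 of 5) were high in every library, with summed CPM of 7590 to 9868 and 6613 to 9377. Of the 10 intestine markers 8 were detected, and their summed CPM was 1894 and 1066 in M1 and M2 and 801 and 499 in H1 and H2. Gonads dissected in this way thus held transcripts of markers of another tissue, at a level that differed between libraries of one genotype.

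Most clec genes had little or no signal in the gonad. Of the 255, 72 were listed at 0 reads in all libraries and 183 had at least 1 read. Some genes that every cell uses, such as ribosomal protein genes, are also listed at 0 in this table, so that 0 is not in every case a measured absence. The infection-induced gene clec-60 was among the clec genes listed at 0. A gene was called detected when its RPKM was above 0.5 in both libraries of at least 1 genotype, and 44 clec genes met this rule, which is 17.3% of the family against 45.1% of all genes. Of the 44, 27 were detected in both genotypes, 10 only in met-2;him-8 (22.7%) and 7 only in him-8 (15.9%), against 4.04% and 9.17% of all 9202 detected genes, and these differences were not tested. With a minimum of 0.1 the number was 76, with a minimum of 5 it was 8, and with the authors' own RPKM per genotype above 0.5 it was 72.

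**Figure D1:**
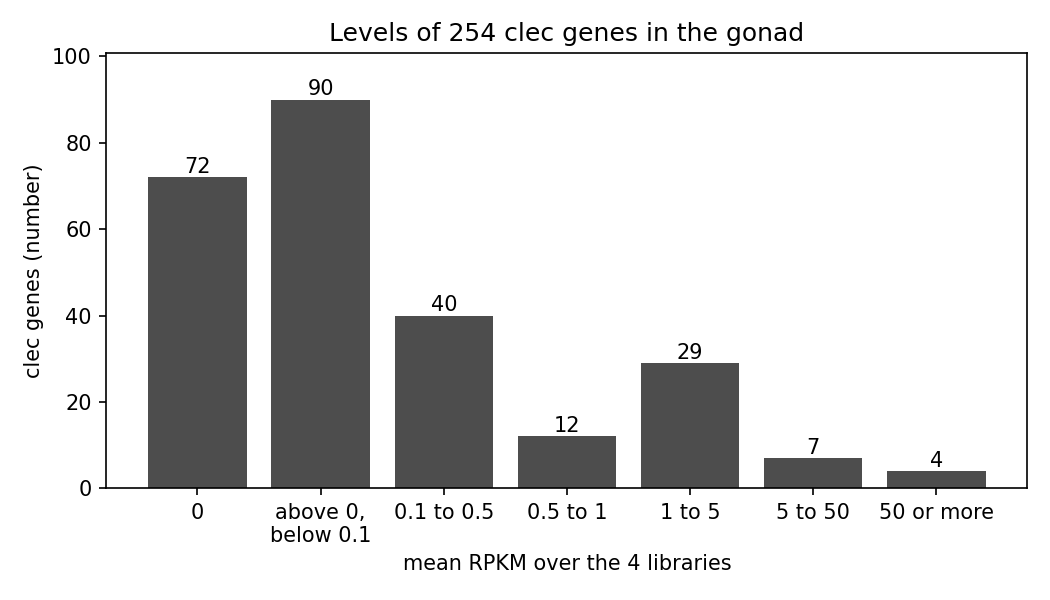
Bars give the number of clec genes (vertical axis) in each class of mean RPKM over the 4 libraries (horizontal axis), for the 254 members with an annotated exon length. The 2 lowest classes hold 72 and 90 genes, and 4 genes reach 50 or more.

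The levels covered a wide range. Over the 254 members with an exon length, which leaves out clec-81, mean RPKM was 0 for 72, above 0 and below 0.1 for 90, from 0.1 to 0.5 for 40, from 0.5 to 1 for 12, from 1 to 5 for 29, from 5 to 50 for 7 and at least 50 for 4. The 15 members annotated as pseudogenes included 9 with reads, none was detected, and the highest total over the 4 libraries was 36 reads. Detected and undetected members had median coding lengths of 943.5 and 951 bases and medians of 4.5 and 6 exons. These are descriptions, with no test.

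Chromosome V held 92 clec genes, of which 10 were detected (10.9%). Chromosome IV held 58, of which 13 were detected (22.4%), and chromosome II held 51, of which 10 were detected (19.6%). Chromosome I held 36 with 5 detected, chromosome III 15 with 3, and chromosome X 3, all of which were detected. The X-linked members were clec-265, with 7.10 and 1.20 CPM in M1 and M2 and 3.24 and 0.80 CPM in H1 and H2, clec-266, with 8.03, 6.60, 4.45 and 2.92 CPM in the same order, and clec-86, with 1.19, 0.69, 0.27 and 0.22 CPM. None of these passed the adjusted test given further on.

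Many members lie in arrays. Joining clec genes whose gaps are at most 20 kb gave 21 arrays of 3 or more genes, which together hold 117 members, and 32 pairs. In 12 of the 21 arrays, with 65 genes, no gene had enough reads to be tested. An array of 13 genes on chromosome V (16839123 to 16869798, from clec-40 to clec-33) had reads on 10 of them, none detected, and a summed level of 1.04, 0.93, 1.16 and 0.73 CPM in M1, M2, H1 and H2. The array that holds clec-60 (chromosome II, 10468291 to 10490431) had reads on 2 of its 5 genes and no detected gene. Coordinates are those of the deposited table, which names no genome build, counted from 1.

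The genes clec-87, clec-88 and clec-91 made up most of the clec reads in every library. They took 83.7% of clec reads in M1, 94.3% in M2, 92.5% in H1 and 97.5% in H2. Unlike most members, they were at similar levels in all 4 libraries. The most abundant, clec-87 (C25A1.8, chromosome I, 10184636 to 10185436), was at 2491 and 2876 CPM in met-2;him-8 and at 2051 and 2253 CPM in him-8. Its libraries were separated by genotype, but the difference was small, with a log2 fold change of 0.32 (SE 0.18, adjusted p = 0.891 by the quasi-likelihood test of edgeR, Benjamini-Hochberg adjustment).

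The next, clec-88 (K10B2.3, chromosome II, 6365745 to 6366545), was at 702 and 580 CPM in met-2;him-8 and at 573 and 678 CPM in him-8. Its groups overlapped, and its log2 fold change was 0.04 (SE 0.21). The third, clec-91 (ZK858.3, chromosome I, 9126236 to 9127023), was at 446 and 541 CPM in met-2;him-8 and at 384 and 376 CPM in him-8, with a log2 fold change of 0.38 (SE 0.20, adjusted p = 0.886, edgeR). All 3 genes stand alone, with no other clec gene within 20 kb.

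The summed CPM of these 3 genes varied from 3008 to 3996 over the libraries, whereas that of all other clec genes together was 710, 243, 245 and 84.0 in M1, M2, H1 and H2. Taken as a sum, the clec genes outside these 3 therefore differed more between the replicates of one genotype than the 3 did. Of that sum clec-63 alone held 263, 74.6, 51.2 and 7.31 CPM in M1, M2, H1 and H2, so it says little about the low members.

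**Figure D2:**
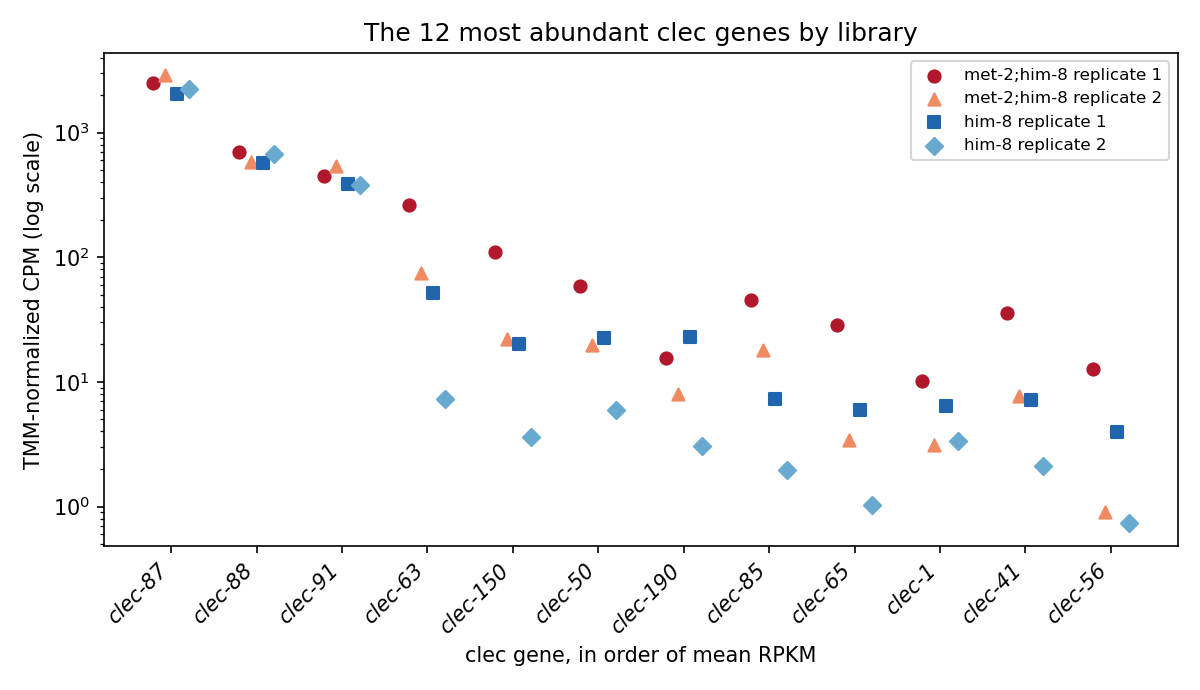
Points give the TMM-normalized CPM (vertical axis, log scale) of the 12 clec genes with the highest mean RPKM (horizontal axis) in each of the 4 libraries. The 4 libraries lie close together for clec-87, clec-88 and clec-91 and apart for the others, with M1 highest in 8 of the remaining 9.

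The 9 genes that follow in level were clec-63, clec-150, clec-50, clec-190, clec-85, clec-65, clec-1, clec-41 and clec-56. The first of them, clec-63 (F35C5.6, chromosome II, 12895571 to 12897318), was at 263 and 74.6 CPM in met-2;him-8 and at 51.2 and 7.31 CPM in him-8. M2 lay closer to H1 than to M1, and the log2 fold change of 2.52 had an SE of 1.06. The gene clec-150 (R06B10.3, chromosome III, 1002716 to 1006205) followed the same order of libraries, at 110, 22.3, 20.1 and 3.58 CPM, with a log2 fold change of 2.47 (SE 1.09). Single libraries moved both values, to 1.35 without M1 and 4.51 without H1 for clec-63, and to 0.91 and 4.19 for clec-150.

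Both clec-50 (W04E12.8, chromosome V, 19752421 to 19755306) and clec-41 (B0365.6, chromosome V, 13135930 to 13138044) were highest in M1 and lowest in H2. Levels of clec-41, which is known to take part in the defence against Bacillus thuringiensis, were 35.9 and 7.74 CPM in met-2;him-8 and 7.21 and 2.12 CPM in him-8. Levels of clec-50 were 59.1 and 19.8 CPM in met-2;him-8 and 22.3 and 5.92 CPM in him-8, so that its groups overlapped. The log2 fold changes were 2.2 (SE 0.95) for clec-41 and 1.47 (SE 0.81) for clec-50. Without M1 they were 0.71 and 0.49, and without H1 3.34 and 2.72.

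For clec-190 (M199.4), H1 was highest, at 23.0 CPM against 15.6, 8.04 and 3.07 CPM in M1, M2 and H2, and the log2 fold change was -0.15. The groups overlapped as well for clec-65 (28.4 and 3.42 CPM in met-2;him-8, 6.0 and 1.02 CPM in him-8), clec-1 (10.1 and 3.09 CPM, 6.44 and 3.36 CPM) and clec-56 (12.8 and 0.90 CPM, 3.93 and 0.73 CPM). In each of the last 3 genes M1 stood above the other 3 libraries.

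The gene clec-85 (Y54G2A.6, chromosome IV, 2854388 to 2855418, plus strand) was the clec gene with the largest fold change and the smallest p-value among those tested. From the same libraries the authors had already shown clec-85 as an example of a transcript raised in met-2;him-8, so this rank is no independent result. In the paper it was among the transcripts that Cuffdiff called different, whereas the main edgeR fit given below did not call it. The gene had 879 and 600 reads in M1 and M2 and 375 and 27 reads in H1 and H2, which is 45.5 and 18 CPM against 7.23 and 1.97 CPM. M1 and M2 thus both exceeded H1 and H2, and the replicates of each genotype differed by more than 2-fold. The log2 fold change was 2.76 (SE 0.80, unadjusted p = 0.018 and, by edgeR with Benjamini-Hochberg adjustment over 10875 genes, adjusted p = 0.886). With 2 libraries per genotype the smallest p of an exact permutation test is 0.333. The log2 fold change was 1.94 without M1, 3.26 without M2, 3.99 without H1 and 2.13 without H2. Without the expression filter clec-85 passed the adjusted test, with an adjusted p of 9.73e-06 (edgeR). In that fit the log2 fold change was nearly the same, at 2.75, but the SE was 0.48 instead of 0.80. The pass thus came from a smaller error given to the same reads.

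Among its paralogs clec-85 stood at place 8 by mean RPKM, at place 7 in each met-2;him-8 library, and at places 11 and 16 in H1 and H2. Its RPKM was 35.1, 11.4, 5.25 and 1.32 in M1, M2, H1 and H2. That of clec-190, one place above, was 22.5, 9.52, 31.3 and 3.86, and that of clec-65, one place below, was 27.0, 2.66, 5.36 and 0.84. The ranges of these 3 genes overlapped widely, so the order within this stretch is not resolved. In the authors' table, which gives 1 RPKM per genotype, clec-85 was at 52.0 in met-2;him-8 and 6.86 in him-8, at places 6 and 12 of the family. The WBcel235 model of clec-85 used here for length begins further upstream than the gene of the deposited table and has 1434 bases of exon, more than the 1031 bases that the deposited gene spans, which lowers its RPKM but not its fold change.

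The clec genes beside clec-85 lie upstream of it on chromosome IV, in an array of 6 that spans 31.6 kb. By mean RPKM clec-85 was the highest of the array, at 13.2 against 3.11 for clec-83, although in H2 clec-83 was at 1.45 and clec-85 at 1.32. The nearest, clec-84, had 29 and 79 reads in met-2;him-8 and 64 and 8 reads in him-8, with a log2 fold change of 1.06 (SE 0.74). It shares its interval with Y54G2A.15 on the other strand, which had 5 and 5 reads in met-2;him-8 and 77 and 20 in him-8, and the strand setting of the counting is not given in the sources used here. Without strand the reads of such a pair cannot be told apart.

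The next gene, clec-83, was at 5.70 and 1.53 CPM in met-2;him-8 and at 2.35 and 1.39 CPM in him-8 (log2 fold change 0.93, SE 0.80). Further off, clec-81 had 12 and 18 reads in met-2;him-8 and 26 and 4 in him-8, clec-80 had 2 and 10 reads and 27 and 4, and clec-82 was listed at 0 in every library. The log2 fold changes of the tested neighbours, including 0.51 (SE 0.92) for clec-81, were below that of clec-85, but they carried large errors and their difference from it was not tested.

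**Figure D3:**
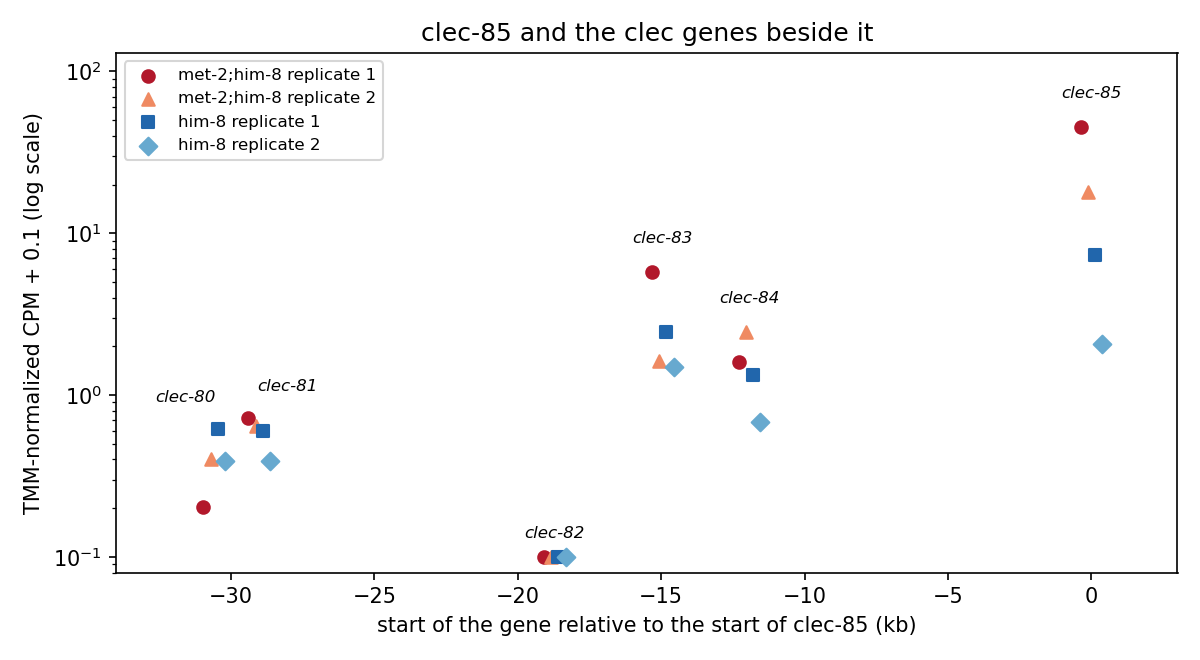
Each point is the TMM-normalized CPM plus 0.1 (vertical axis, log scale) of a clec gene in one library, placed by the distance of its start from that of clec-85 (horizontal axis, kb), with libraries shifted slightly sideways for sight. The 4 libraries spread from 1.97 to 45.5 CPM at clec-85 and from 1.39 to 5.70 CPM at clec-83.

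For the comparison of genotypes, 65 clec genes had enough reads to be tested (25.5% of the family against 53.3% of all genes). A gene high in one genotype alone can pass such a filter, so counts over the 65 describe them and are no evidence on the family as a whole. By the quasi-likelihood test of edgeR none had an adjusted p below 0.05 (0 of 65), and neither had any of the 10875 genes (0.0%). DESeq2 also called 0 clec genes, and 10 of them (15.4%) had an unadjusted p below 0.05 there, against 5.83% of all genes. In edgeR's test 4 clec genes had an unadjusted p below 0.05, 3 of them with more and 1 with fewer transcripts in met-2;him-8, against 1.83% of all tested genes higher and 3.01% lower. Without the expression filter 5 clec genes passed the adjusted test (clec-63, clec-65, clec-150, clec-85 and clec-41, all higher) of 183, against 0.659% of all genes. Their log2 fold changes hardly moved from the main fit, but their SEs were smaller, for clec-63 0.34 instead of 1.06. These calls therefore depend on how the fit sets the error.

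Besides clec-85 the higher genes were clec-223 and clec-126, and in both it was M2 that stood out. Levels of clec-223 (C03E10.5, chromosome V, 11273130 to 11278050) were 3.63 and 11.3 CPM in met-2;him-8 and 2.12 and 0.73 CPM in him-8 (log2 fold change 2.35, SE 0.84, unadjusted p = 0.037, edgeR). Levels of clec-126 (W09G10.5, chromosome II, 3519600 to 3520424) were 2.44 and 8.88 CPM in met-2;him-8 and 1.16 and 1.53 CPM in him-8 (log2 fold change 2.09, SE 0.78, unadjusted p = 0.043, edgeR). Both were separated by genotype, and both values rested on M2. Without it the log2 fold change was 1.27 for clec-223 (unadjusted p = 0.157) and 0.86 for clec-126 (unadjusted p = 0.232, edgeR).

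The lower gene was clec-47 (T09F5.9, chromosome V, 15175745 to 15176273), with 0 and 3 reads in met-2;him-8 and 70 and 8 reads in him-8. Scaled to depth and summed over libraries, its level in met-2;him-8 was 0.048 of that in him-8, with an exact 95% interval of 0.0097 to 0.145 that covers counting error only. The fitted log2 fold change was -4.15 (SE 1.42, by edgeR, unadjusted p = 0.033 and adjusted p = 0.886), and at 0 and 3 reads this value depends on the fit.

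Among members with at least 10 reads in every library, the 5 with the largest positive log2 fold change were clec-85, clec-63, clec-150, clec-223 and clec-41, described above, and the 5 with the largest negative one were clec-5, clec-222, clec-123, clec-90 and clec-142. The negative values were smaller in size than the positive ones. For clec-5 (C35D10.14, chromosome III) the levels were 1.04 and 0.42 CPM in met-2;him-8 and 3.10 and 1.02 CPM in him-8, and for clec-90 (F57C9.2, chromosome I) 3.52 and 3.48 CPM against 4.67 and 6.43 CPM. The genotypes were separated for clec-90 and overlapped for clec-5, and the log2 fold changes were -0.66 (SE 0.45) and -1.54 (SE 0.91). The remaining log2 fold changes were -0.90 for clec-222, -0.82 for clec-123 and -0.42 for clec-142, none beyond 2 standard errors.

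**Figure D4:**
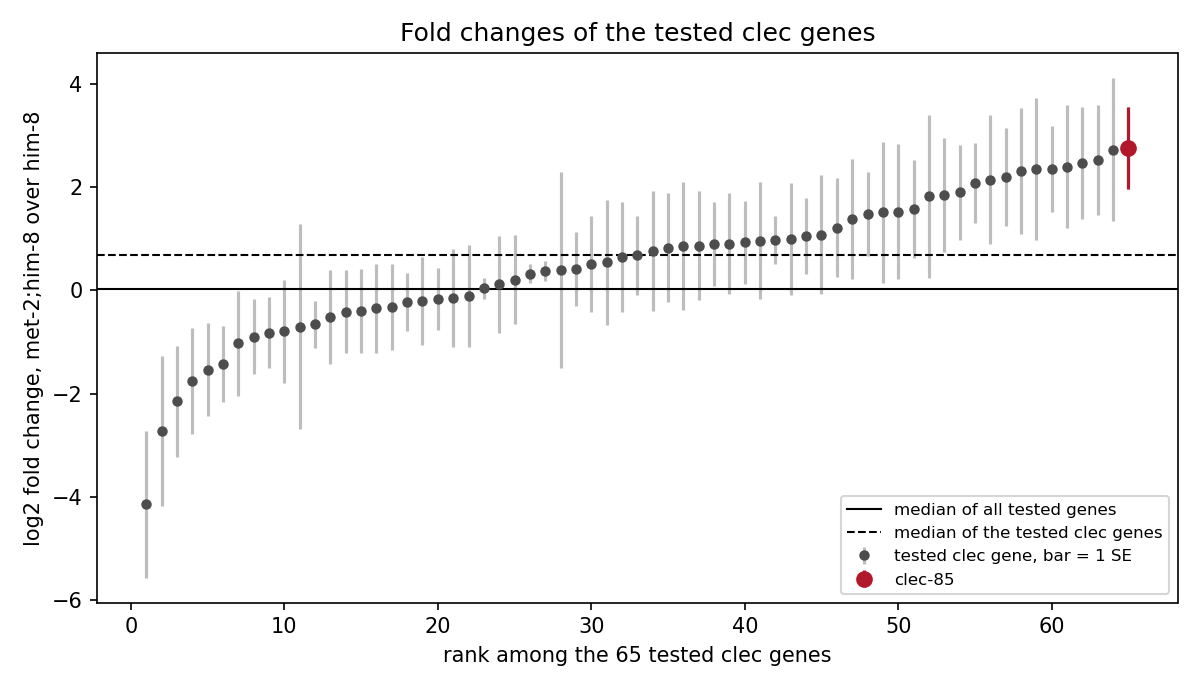
Points give the log2 fold change of met-2;him-8 over him-8 (vertical axis) of the 65 tested clec genes in order of size (horizontal axis, rank), with bars of 1 SE, and lines mark the median of the tested clec genes (0.67, broken) and of all tested genes (0.02, solid). The highest point is clec-85 at 2.76 and the lowest is clec-47 at -4.15.

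Of the 65 tested genes 43 had a positive and 22 a negative log2 fold change, with a median of 0.67 beside 0.02 for all tested genes. The median SE was 0.95 for clec genes and 0.48 for all tested genes, so single low members were measured poorly. In 19 clec genes M1 and M2 both exceeded H1 and H2 (29.2%, against 16.9% of all tested genes), and in 6 both were below (9.23%, against 19.8%). Each fit with a library left out was filtered anew, and covered 80, 71, 68 and 82 clec genes without M1, M2, H1 and H2. Over these differing sets the median changed with the library left out. It was -0.28 without M1, 1.10 without M2, 1.48 without H1 and 0.38 without H2, and the number of clec genes at an unadjusted p below 0.05 in these fits was 10, 16, 9 and 1. That is 12.5%, 22.5%, 13.2% and 1.22% of the clec genes tested, against 14.9%, 12.3%, 1.70% and 0.517% of all genes.

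The tested clec genes were often highest in M1 and lowest in H2, and a minority followed 1 strict order. In 35 of 65 the highest library was M1 (53.8%, against 28.3% of all tested genes), and in 35 the lowest was H2 (53.8%, against 25.6%). The median difference between replicates was 1.01 on the log2 scale for M1 over M2 and 1.01 for H1 over H2, against 0.01 and 0.02 for all tested genes. The replicates of one genotype thus differed by more than the median fold change between genotypes. The strict order of M1, M2, H1, H2 was found in 11 clec genes (16.9%, against 5.23% of all tested genes), namely clec-85, clec-62, clec-63, clec-66, clec-145, clec-150, clec-169, clec-81, clec-41, clec-266 and clec-86.

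The array of clec-62 to clec-66 on chromosome II (12893083 to 12906476) had this order in its sum. Its summed level was 310 and 83.4 CPM in M1 and M2 and 61.2 and 8.70 CPM in H1 and H2. All 4 tested genes of the array were highest in M1 and lowest in H2, with a median log2 fold change of 2.35, while clec-64 had 1 read in all. The largest array, 14 genes from clec-67 to clec-78 on chromosome IV (3922189 to 3991515), did not follow it, with summed levels of 3.52 and 4.02 CPM in met-2;him-8 and 9.39 and 4.90 CPM in him-8 and a median log2 fold change of -1.75 over its 3 tested genes. Arrays of close paralogs can share reads, so values of single genes within them are uncertain.

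The summed intestine markers, like the sum of the clec genes outside the 3 most abundant, were highest in M1 and lowest in H2. The marker sum followed the order 1894, 1066, 801 and 499 CPM over M1, M2, H1 and H2. Of the 9 tested markers 8 were highest in M1 and 7 were lowest in H2. Only 2 of the 9 had the strict order by themselves. In others H1 exceeded M2, as in act-5, at 61.6, 23.9, 53.3 and 16.7 CPM in M1, M2, H1 and H2. The intestinal aspartic protease gene asp-1 was at 1113, 426, 291 and 51.1 CPM, and the yolk protein genes vit-2, vit-5 and vit-6 together at 693, 608, 441 and 427 CPM. The intestinal regulators elt-2 and elt-7 were close to 0, at no more than 0.73 CPM in any library. In bulk RNA a difference in the number of cells of a type and a difference in RNA per cell cannot be told apart, and the part of intestinal RNA in the clec results was not tested.

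Scaled to these markers, a measure chosen after the values were seen, the ratio of the genotype means of clec-85 was smaller than the unscaled 6.90, at 3.15, 1.63 and 1.31 by the 3 measures that follow. Per 1000 CPM of the intestine list, clec-85 was at 24 and 16.9 in met-2;him-8 and at 9.02 and 3.95 in him-8. Without the yolk protein genes the values were 37.9 and 39.3 in met-2;him-8 and 20.1 and 27.4 in him-8, and per 1000 CPM of asp-1 alone they were 40.9 and 42.3 in met-2;him-8 and 24.9 and 38.6 in him-8. Against asp-1 the lower met-2;him-8 value and the higher him-8 value lay close together, and H1 stood apart. The ratios of 1.63 and 1.31 both rest mostly on asp-1. It made up 1113, 426, 291 and 51.1 of the 1201, 458, 360 and 72.1 CPM without yolk protein genes in M1, M2, H1 and H2. Its log2 fold change, 2.17, was the largest of the intestine list. Scaling by other single markers, such as act-5 with a log2 fold change of 0.28, was not done. As a percentage of the summed CPM of the 251 clec genes other than itself and the 3 abundant ones, clec-85 was at 6.86% and 7.99% in met-2;him-8 and at 3.05% and 2.41% in him-8, whereas those 251 genes together, per 1000 CPM of intestine markers, were at 351 and 211 in met-2;him-8 and at 296 and 164 in him-8, with overlapping groups.

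**Figure D5:**
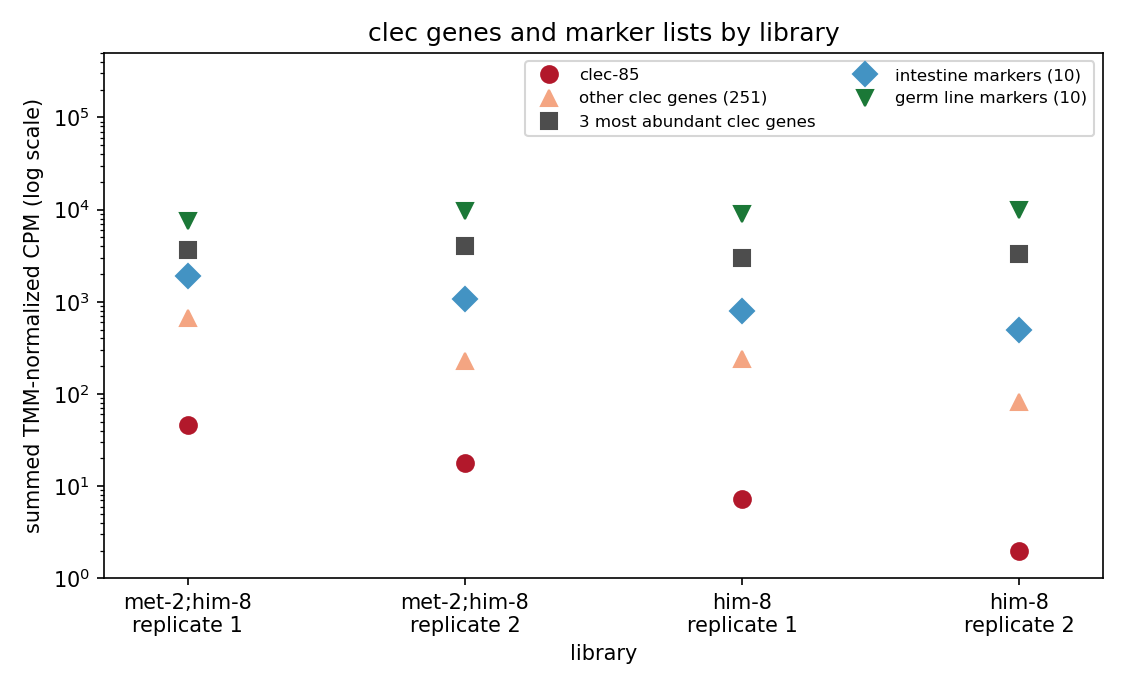
Points give summed TMM-normalized CPM (vertical axis, log scale) of clec-85, of the other 251 clec genes outside the 3 most abundant, of those 3, and of the intestine and germ line marker lists, in each library (horizontal axis). From M1 to H2, clec-85 goes from 45.5 to 1.97 CPM and the intestine list from 1894 to 499 CPM, while the 3 abundant clec genes stay between 3008 and 3996 CPM.

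Of the other lists, the spermatheca markers summed to 7.51, 5.52, 4.88 and 4.53 CPM in M1, M2, H1 and H2, although none of the 4 genes had that order by itself. The hypodermis sum, 210, 193, 220 and 90.4 CPM, was nearly all from the cuticle collagen gene col-19. Gonadal sheath markers were at 160 and 137 CPM in met-2;him-8 and at 210 and 224 CPM in him-8. Most of that sum came from inx-8 and inx-9, and of the 4 sheath genes 1, ceh-18, had a positive log2 fold change (0.96, SE 0.68). Sperm markers were at 42.2 and 26.3 CPM in met-2;him-8 against 44.2 and 25.7 CPM in him-8. Body wall muscle markers were highest in M2, at 213 CPM against 61.2 to 68.2 CPM in the other libraries, which is also the library in which clec-223 and clec-126 were highest. The part of these lists in the clec results was not tested.

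Other genes of the immune response were examined as lists. A list of immune regulators held the p38 pathway kinases pmk-1, sek-1 and nsy-1 and the adaptor tir-1. It also held atf-7, vhp-1, tpa-1, zip-2 and hlh-30, so it is wider than the p38 pathway. It had 9 of 9 genes tested, none with an unadjusted p below 0.05 in either direction by edgeR (and 0 adjusted). Its median log2 fold change was 0.08. Of 75 genes of other immune effector families (lysozymes, saposin-like proteins, caenacins and others) 33 were tested, with a median of 0.41. By edgeR 1 was higher and 0 lower at an unadjusted p below 0.05, and 0 passed after adjustment. Over all tested genes the shares at that unadjusted threshold were 1.83% higher and 3.01% lower. The higher gene, named after its values were seen, was irg-3, at 3.16 and 2.07 CPM in met-2;him-8 and 0.54 and 0.73 CPM in him-8. Their summed level was 849 and 321 CPM in M1 and M2 and 457 and 205 CPM in H1 and H2. Of these families, the lysozymes were at 419, 102, 156 and 40.5 CPM, again highest in M1 and lowest in H2. The galectins, another family of lectins, had 10 of 11 genes tested and a median of 0.73. By edgeR 0 had an unadjusted p below 0.05 in either direction, and 0 passed after adjustment. Their sum was more even, at 564, 504, 440 and 468 CPM, but lec-1 alone held 293, 377, 288 and 383 CPM of it. Of the 10 tested galectins 7 were highest in M1 and 7 were lowest in H2.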

How the data were processed

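Groups and replicate numbers came from the sample labels. The authors aligned reads with STAR and compared genotypes with Cuffdiff 2.2.1. They deposited estimated counts per gene and library, not scaled to depth, whose counting tool, annotation and strand setting are not given in the sources used here, and 1 RPKM value per genotype. Fold changes and p-values of the authors' own comparison were not used. The design assumed whole counts; the few that were not whole (2 clec genes) were rounded. The test was the quasi-likelihood test of edgeR 4.0.16 (R 4.3.3; glmQLFit and glmQLFTest, TMM, filterByExpr, genotype only), with Benjamini-Hochberg adjustment over the 10875 genes that passed and a threshold of 0.05. DESeq2 1.42.0, other filters and normalizations, a replicate block and leaving out each library were alternatives. Standard errors came from the log2 fold change and the F statistic.

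RPKM per library was computed from the counts and WBcel235 exon lengths, matched by sequence name for 254 of 255 members (not clec-81). Log2 differences between libraries used CPM + 0.1. Totals were 17474062 and 36853036 reads in met-2;him-8 and 49848077 and 14255714 in him-8, at which 3 reads are 0.155, 0.0900, 0.0578 and 0.219 CPM. PCR duplicates were not marked, so such limits cover counting error only.

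Named genes were clec-85, the 12 highest by mean RPKM, those with an unadjusted p below 0.05, the 5 largest changes in each direction with at least 10 reads in every library, clec genes within 100 kb of clec-85, and those with reads in both libraries of only 1 genotype. Members and lists were chosen with earlier results of these data known. Protein identity to CLEC-85 and correlation with clec-85, which 4 libraries are too few for, were not used here. Of the members, 14 overlap another gene of the table, and their reads are uncertain.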

Additional observations from a re-analysis of the deposited data

How the results depend on the processing

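No clec gene was called, and none of all genes, under RLE or upper quartile normalization, with at least 10 reads in every library, or with any library left out (0 to 0 in both counts). Without the expression filter edgeR called 5 clec genes and 113 of all genes. In that fit 15 clec genes (8.20%, against 6.53% of all genes) had an unadjusted p below 0.05. The SEs of the 5 called clec genes were smaller there than in the main fit, for clec-85 0.48 instead of 0.80. DESeq2 called 26 genes, none of them clec, with 10 clec genes at an unadjusted p below 0.05. For clec-85 the log2 fold change was 2.75 without the filter (adjusted p = 9.73e-06, edgeR), 2.78 with DESeq2 (adjusted p = 0.071), and 1.94 to 3.99 with 1 library left out, where edgeR's adjusted p ranged from 0.323 to 1.0. With 1 library left out, the lone library of a genotype is assumed to vary like the other pair, the number of clec genes at an unadjusted p below 0.05 ranged from 1 to 16, the median log2 fold change from -0.28 to 1.48, and the number of detected clec genes from 45 to 65. That last number was 76 at an RPKM above 0.1, 8 above 5 and 72 with the authors' RPKM.

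The 2 genotypes share replicate numbers in the labels, and nothing there pairs the samples. Over the 10875 tested genes, the deviations of M1 and H1 from their genotype means correlated at 0.358. Those of M2 and H2 are their mirror image and add nothing, so the 2 pairs give a single value. With a replicate block 8 clec genes (clec-62, clec-63, clec-65, clec-66, clec-150, clec-85, clec-41 and clec-50, all higher) and 144 of all genes were called, 16 clec genes (24.6%, against 10.3% of all genes) had an unadjusted p below 0.05, and clec-85 had a log2 fold change of 2.89 (adjusted p = 7.42e-07, edgeR). With the block the prior degrees of freedom were 74.9 against 3.07 without it, so each spread was taken mostly from other genes.

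Of 216 values of other named genes under alternatives, 198 kept their direction and side of the threshold, 9 passed it and 9 changed sign. Without met-2;him-8 replicate 1 the log2 fold change was -0.67 for clec-1, -1.41 for clec-56, -0.068 for clec-65, -0.30 for clec-83 and -0.10 for clec-88, which was also at -0.09 without him-8 replicate 1. For clec-190 it was 0.36 with the block, 0.23 without met-2;him-8 replicate 2 and 1.93 without him-8 replicate 1. Over the fits with 1 library left out, the range was -0.67 to 1.02 for clec-1, -1.41 to 3.19 for clec-56, -0.068 to 3.93 for clec-65, -0.30 to 1.57 for clec-83, -0.10 to 0.16 for clec-88 and -0.96 to 1.93 for clec-190. The causes were not tested. Depth limits the low members most, since 156 of 255 had fewer than 10 reads over the 4 libraries.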

Other observations

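A further 9 clec genes had reads in both libraries of 1 genotype and none in the other, all with no more than 23 reads in any library. With reads in met-2;him-8 only there were 3 of the 183 clec genes with any read (1.64%, against 0.350% of all such genes), and in him-8 only 6 (3.28%, against 3.43%). In met-2;him-8 only, clec-9 had 2 and 23 reads, clec-162 had 1 and 2, and clec-68 had 2 and 1. In him-8 only, clec-165 had 11 and 2 reads, clec-99 had 6 and 1, clec-236 had 4 and 1, clec-106 and clec-35 each had 2 and 1, and clec-207 had 1 and 1. None had enough reads to be tested, and both numbers of a pair are at or under 3 reads in clec-162, clec-68, clec-106, clec-35 and clec-207.

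Some of the remaining separated genes lie together. In the largest array, on chromosome IV, clec-73 was at 0.16 and 1.32 CPM in met-2;him-8 and at 4.53 and 2.19 CPM in him-8, and clec-79 at 1.40 and 0.21 CPM against 3.32 and 1.97 CPM, while clec-67 at the other end of the array was at 1.40 and 1.68 CPM against 0.71 and 0.07 CPM. Both clec-73 and clec-79 were lower in both met-2;him-8 libraries, with log2 fold changes of -2.15 (SE 1.07) and -1.75 (SE 1.03), and clec-67 was higher, with 1.85 (SE 1.10). None of the 3 fell below 0.05 in unadjusted p (edgeR), and these genes were chosen after their values were seen.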
